A study of Mus musculus with 6 samples.

Results

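B cell identity genes were followed in bulk thymocyte RNA as a set of 9 protein-coding genes, Cd79a, Cd79b, Ms4a1, Pax5, Ebf1, Cd22, Fcrla, Fcmr and Vpreb3, picked by symbol from the 55536 genes of the count table. All 9 were found, and all 9 had enough counts to be among the 18690 genes tested between genotypes. The libraries came from thymocytes (T cell precursors maturing in the thymus) of 3 mice labelled Il3ra-/- and 3 mice labelled Il3ra+/+ (wildtype). Il3ra encodes the interleukin-3 receptor alpha chain, and its loss is taken from the label. There was 1 library per mouse, and strain, age and sex of the mice, the design of the allele and any sorting of the cells were not stated in the sources used. The libraries are called KO1 to KO3 and WT1 to WT3 after their replicate numbers. Levels are CPM, reads of a gene per one-millionth of the TMM-scaled library size, given as mean ± SD with n = 3 per genotype, and log2 folds are labelled knockout over wildtype. P-values adjusted by the Benjamini-Hochberg method (BH) over all tested genes were called at a threshold of 0.05.

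A small number of B cells lives in the thymus, where they are known to present antigen to developing T cells. B cell identity rests on a transcription factor circuit in which Ebf1 and Pax5 switch on B lineage genes and Pax5 holds other fates off. Their targets include the receptor chains Cd79a and Cd79b, which pair with membrane immunoglobulin and carry its signal into the cell, and surface proteins such as CD20 (Ms4a1) and the inhibitory receptor Cd22. In a bulk library, fewer B cells and less RNA per B cell cannot be told apart.

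Promoter sequence is shown for the 4 members whose windows held a sequence searched for, Cd79a, Cd22, Fcrla and Vpreb3. The windows of Pax5, Ebf1 and Fcmr held none and are not shown. Pax5, without a match, was lowest in KO1 and highest in KO3, as were Cd79a, Cd22 and Fcrla, each with a match. Vpreb3, also with a match, was highest in KO1. Of the others without a match, Ebf1 was lowest in WT1 and Fcmr was highest in WT3. Whether matches and levels are related was not tested. RefSeq promoters on GRCm38.p6 were found for 7 of the 9 members, in 8 windows with a second start for Ebf1. Capitals mark the letters found by a search of the 250 bases before each RefSeq start on both strands. Bases that GENCODE M21 annotates as exon are left out, so the stretches differ in length, and each reads 5′ to 3′ on the gene's strand.
Cd79a: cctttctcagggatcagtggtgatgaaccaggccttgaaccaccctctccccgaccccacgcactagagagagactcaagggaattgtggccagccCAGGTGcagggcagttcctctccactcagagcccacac
Fcrla: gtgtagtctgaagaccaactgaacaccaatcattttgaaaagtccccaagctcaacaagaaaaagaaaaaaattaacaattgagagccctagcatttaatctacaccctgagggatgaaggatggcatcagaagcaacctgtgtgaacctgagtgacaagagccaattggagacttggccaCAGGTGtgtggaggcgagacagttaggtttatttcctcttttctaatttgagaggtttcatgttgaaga
Cd22: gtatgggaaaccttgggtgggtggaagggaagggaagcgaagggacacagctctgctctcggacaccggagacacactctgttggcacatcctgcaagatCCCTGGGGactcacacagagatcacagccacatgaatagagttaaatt
Vpreb3: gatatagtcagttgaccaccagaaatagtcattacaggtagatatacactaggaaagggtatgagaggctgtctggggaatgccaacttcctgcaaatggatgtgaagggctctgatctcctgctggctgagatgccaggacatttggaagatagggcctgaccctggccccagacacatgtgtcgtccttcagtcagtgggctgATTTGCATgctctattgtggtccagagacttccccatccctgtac
The Cd79a stretch (chr7:24897247-24897380, plus strand, 134 bases) and the Fcrla stretch (chr1:170927584-170927833, minus strand, 250 bases) lie upstream of the annotated genes. Those of Cd22 (chr7:30879029-30879176, minus strand, 148 bases) and Vpreb3 (chr10:75948050-75948299, plus strand, 250 bases) lie in introns of longer annotated transcripts. The E-box CAGGTG, a sequence that E proteins bind, stood in 3 of the 8 member windows (Cd79a, Cd22 and Fcrla) and in 17.2% of all 32851 promoter windows. In the Cd22 window it lies in the exonic part that is not shown. The paired half-site CCCNNGGG, which EBF factors bind, stood in 1 member window (Cd22) and in 11.8% of all windows. The octamer ATGCAAAT of POU factors stood in 1 member window (Vpreb3, as its reverse complement) and in 1.6% of all windows. The PU.1 sequence GAGGAAGT stood in 0 of 8 windows and in 2.44% of all windows. These matches describe the letters in the windows and are not shown to be bound sites.

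Total counts per library ranged from 59135254 to 82684219 in the labelled knockout and from 55747682 to 66534218 in wildtype. Il3ra, the targeted gene, had 481, 673 and 514 counts in KO1 to KO3, against 465, 376 and 399 in WT1 to WT3, with a fold of 1.14 (edgeR quasi-likelihood, BH-adjusted p = 0.585). Gene-level counts do not show which part of the allele was deleted, so the genotype labels are not checked by them and directions are those of the labelled libraries. KO1 and WT1 carried the transcript of the inactive X chromosome, Xist, at 128236 and 88078 counts, and the other 4 libraries had 8 to 57. Thymocyte marker genes summed to 9659 to 10386 CPM in the labelled knockout and 11256 to 12870.5 CPM in wildtype. T lineage transcripts thus exceeded those of the 9 B cell genes by far in each library. Of the 12 thymocyte markers 1 was fitted higher in the labelled knockout, against 51.2% of all tested genes. Their median log2 fold was -0.23, and 0 passed edgeR's adjusted test, against 0.091% of all tested genes. Counts of libraries of 1 genotype were further apart than sampling alone gives (41.2 to 96.5 per degree of freedom in chi-square tests), and none was treated as a duplicate. Nothing in the labels says how mice were housed or littered, so a genotype difference could also be one of litter or cage, which was not tested. The p-values set the difference between genotypes against the spread between these animals.

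B cell transcripts were present at low levels in all 6 libraries, and no member passed the test between genotypes, which does not show that the levels are equal. Of the 9 members 0 passed (edgeR quasi-likelihood, smallest BH-adjusted p = 0.466, for Ebf1), where 0.091% of all tested genes passed. The count of members at an unadjusted p under 0.05 was 0 of 9 by edgeR, DESeq2 and limma-voom alike, against 14.6%, 14.8% and 14.5% of all tested genes. The adjusted count was 0 by DESeq2, which called 3.22% of all genes and gave no adjusted p for Ebf1 and Vpreb3. It was 0 of 9 by limma-voom, which called 0.0963%. It was also 0 with the low-count filter lifted (2.53% of all genes called), with a filter of 1 CPM (0.0856%), with the replicate number as a block (0.0482%) and with high Xist as a covariate (0.0642%). With 1 library left out it was 0 each time, with 0.15%, 0.121% and 0.0785% of all genes called without KO1, KO2 and KO3, and 0.0669%, 0.0413% and 0.0992% without WT1, WT2 and WT3. The genotypes overlapped in all 9 members, whereas they did not overlap in 20.3% of tested genes. The members' median log2 fold was 0.04, with 5 of 9 fitted higher. Over all tested genes the median was 0.01, and 51.2% were fitted higher. The members instead differed among the 3 labelled knockout libraries, with KO1 lowest of the 6 libraries in 7 of 9 members and KO3 highest in 6 of 9. KO1 was the lowest library for 19.7% of all tested genes and KO3 the highest for 24.6%.

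Cd79a (ENSMUSG00000003379, chromosome 7, 24897381 to 24902197, plus strand) encodes the immunoglobulin alpha signalling chain of the B cell receptor. It had 4.63, 10.8 and 14.0 CPM in KO1 to KO3, against 10.2, 9.38 and 11.7 CPM in WT1 to WT3. The 3 wildtype libraries lay between KO1, the lowest, and KO3, the highest. The means were 9.80 ± 4.75 CPM in the labelled knockout and 10.4 ± 1.18 CPM in wildtype, a fold of 0.941 and 95% limits of 0.528 and 1.68 (edgeR quasi-likelihood, BH-adjusted p = 0.940). The highest labelled knockout library was 3.02 times the lowest, and in wildtype the corresponding ratio was 1.25. Counting error was far smaller than this spread, with a coefficient of variation of 48.5% between labelled knockout libraries against 3.73% from the number of counts.

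Cd79b (ENSMUSG00000040592, chromosome 11, 106311341 to 106314762, minus strand) encodes the immunoglobulin beta partner of Cd79a, and its transcript was far steadier. It had 13.4, 17.1 and 18.1 CPM in KO1 to KO3, against 18.6, 16.3 and 14.8 CPM in WT1 to WT3. KO1 was again lowest, but the highest value stood in wildtype, in WT1. The means were 16.2 ± 2.5 CPM in the labelled knockout and 16.6 ± 1.88 CPM in wildtype, a fold of 0.979 (95% limits 0.788 and 1.22; edgeR quasi-likelihood, BH-adjusted p = 0.945). The ratio of Cd79b to Cd79a CPM was therefore 2.89, 1.59 and 1.30 in KO1 to KO3, against 1.83, 1.74 and 1.27 in WT1 to WT3. Between KO1 and KO3 the 2 chains differed by unequal amounts, 9.34 CPM for Cd79a and 4.74 CPM for Cd79b.

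Ms4a1 (ENSMUSG00000024673, chromosome 19, 11249675 to 11266241, minus strand) encodes CD20, a surface protein of mature B cells. It had 2.53, 5.51 and 7.27 CPM in KO1 to KO3, against 4.60, 3.62 and 4.96 CPM in WT1 to WT3. KO1 was below, and KO2 and KO3 were above, the 3 wildtype libraries. Its fold was 1.16 (95% limits 0.707 and 1.91; edgeR quasi-likelihood, BH-adjusted p = 0.796).

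Cd22 (ENSMUSG00000030577, chromosome 7, 30865402 to 30880342, minus strand), a sialic acid-binding receptor that dampens B cell receptor signals, had 2.33, 4.29 and 5.99 CPM in KO1 to KO3, against 4.31, 3.70 and 4.89 CPM in WT1 to WT3. The 3 wildtype values fell inside the labelled knockout range, and the fold was 0.979 (95% limits 0.626 and 1.53; edgeR quasi-likelihood, BH-adjusted p = 0.974). Fcmr (ENSMUSG00000042474, chromosome 1, 130865669 to 130880791, plus strand), the Fc receptor for IgM, had 0.958, 2.14 and 3.00 CPM in KO1 to KO3, against 2.31, 1.80 and 3.10 CPM in WT1 to WT3. KO1 was lowest and WT3 marginally highest, and the fold was 0.849 (95% limits 0.483 and 1.49; edgeR quasi-likelihood, BH-adjusted p = 0.806).

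Fcrla (ENSMUSG00000038421, chromosome 1, 170917576 to 170927583, minus strand), an Fc receptor-like protein that stays inside B cells, had the widest spread of the members within the labelled knockout. It had 1.01, 2.98 and 4.12 CPM in KO1 to KO3, against 2.57, 1.68 and 2.25 CPM in WT1 to WT3. KO1 was lowest and KO2 and KO3 were highest, with a ratio of 4.09 between KO3 and KO1. The fold was 1.25 (95% limits 0.654 and 2.40; edgeR quasi-likelihood, BH-adjusted p = 0.764). A pseudogene annotated on the same strand within Fcrla, Gm2962, had 49 to 70 counts in the labelled knockout and 45 to 68 in wildtype, where Fcrla had 61 to 287 and 97 to 153 counts in the labelled knockout and in wildtype. Reads shared by the pair could have been assigned to either, and how such reads were treated was not stated in the sources used.

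**Figure D1:**
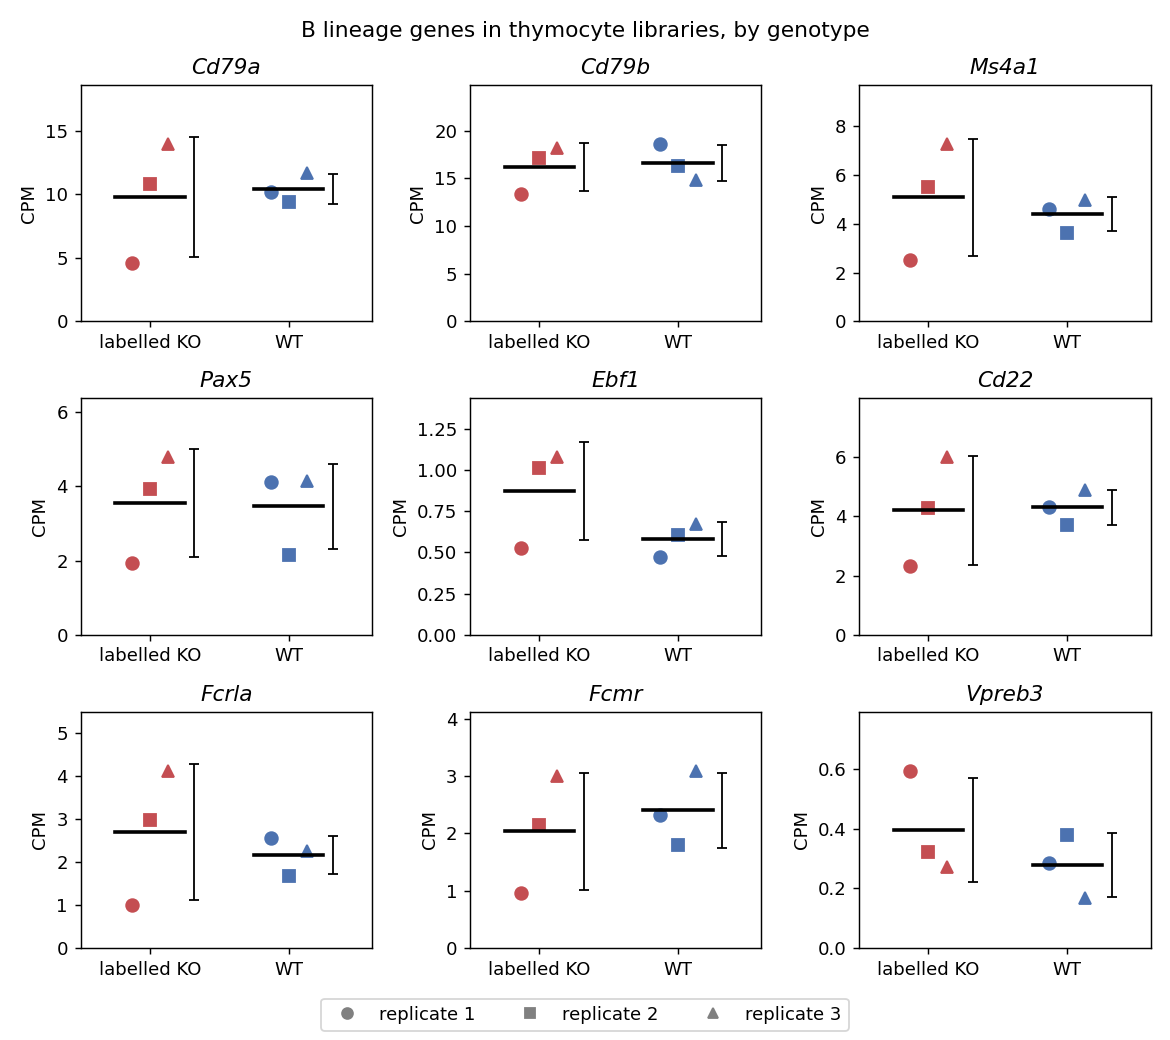
CPM (vertical axis, from 0) of each of the 9 genes in the 3 labelled knockout libraries (left) and the 3 wildtype libraries (right); symbols mark replicates, lines the mean and bars the SD. KO1 (circle) is the lowest of the 6 libraries in 7 genes, while Ebf1 is lowest in WT1 and Vpreb3 is highest in KO1.

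Pax5 and Ebf1 are the transcription factors of the set. Pax5 (ENSMUSG00000014030, chromosome 4, 44524757 to 44710487, minus strand) commits cells to the B lineage. It had 1.95, 3.93 and 4.79 CPM in KO1 to KO3, against 4.13, 2.15 and 4.14 CPM in WT1 to WT3. Here 1 wildtype library, WT2, was nearly as low as KO1, and the fold was 1.03 (95% limits 0.606 and 1.74; edgeR quasi-likelihood, BH-adjusted p = 0.973).

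Ebf1 (ENSMUSG00000057098, chromosome 11, 44617317 to 45008091, plus strand), an early specifier of the lineage that acts with Pax5, had 32, 85 and 75 counts in KO1 to KO3, against 28, 35 and 44 in WT1 to WT3. These gave 0.529, 1.01 and 1.08 CPM in the labelled knockout and 0.470, 0.606 and 0.674 CPM in wildtype. KO2 and KO3 were above the 3 wildtype libraries and KO1 lay among them. Ebf1 had the highest fitted fold of the members, 1.50, with limits of 0.883 and 2.55 that include no change (edgeR quasi-likelihood, BH-adjusted p = 0.466).

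Vpreb3 (ENSMUSG00000000903, chromosome 10, 75943057 to 75949657, plus strand), a relative of the surrogate light chain proteins that is made in B cell precursors, ran against the other members. It had 36, 27 and 19 counts in KO1 to KO3, against 17, 22 and 11 in WT1 to WT3. KO1, lowest for 7 members, was highest for Vpreb3 at 0.595 CPM, with an exact 95% counting interval of 0.417 to 0.823 CPM. KO2 and KO3 had 0.322 and 0.273 CPM, with WT1 to WT3 at 0.285, 0.381 and 0.169 CPM. At such counts the intervals of KO1 and WT2 (0.239 to 0.576 CPM) overlap, and the fold of 1.42 did not pass (95% limits 0.707 and 2.85; edgeR quasi-likelihood, BH-adjusted p = 0.652). These intervals cover counting error only.

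**Figure D2:**
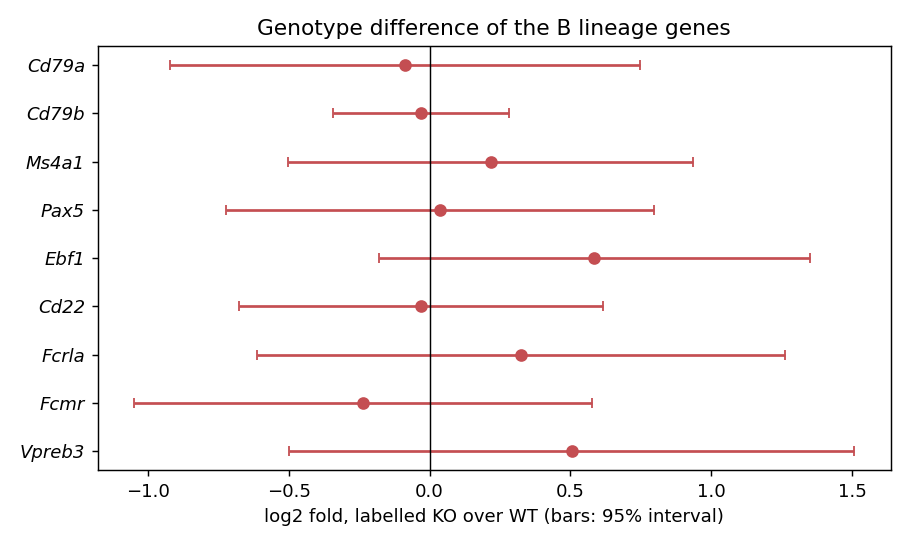
Log2 fold of labelled knockout over wildtype (horizontal axis) for the 9 genes from edgeR's quasi-likelihood fit, with 95% intervals as bars. All 9 intervals include 0, from the narrowest, Cd79b (fold 0.788 to 1.22), to Vpreb3 (0.707 to 2.85).

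The spread between libraries of 1 genotype was next set against the difference between genotypes. On the log2 CPM scale the highest minus the lowest labelled knockout library had a median of 1.35 over the 9 members, against 0.49 within wildtype. Over all tested genes these medians were 0.36 and 0.35. The range exceeded 1, a 2-fold ratio, within the labelled knockout in 7 of 9 members and in 14.5% of all tested genes. It was wider in the labelled knockout than in wildtype in 8 of 9 members, all but Vpreb3, against 51.5% of all tested genes. The difference of genotype means was smaller than the larger of the within-genotype SDs in all 9 members, with a median of 0.18 SD and a highest value of 0.93 SD for Ebf1. It was larger than that SD in 35.4% of all tested genes. In 5 members (Cd79a, Ms4a1, Pax5, Cd22 and Fcrla) at least 1 labelled knockout library lay below and at least 1 above the 3 wildtype libraries, an arrangement found in 17.1% of all tested genes. The 9 members share their libraries, so these counts are not 9 independent observations.

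**Figure D3:**
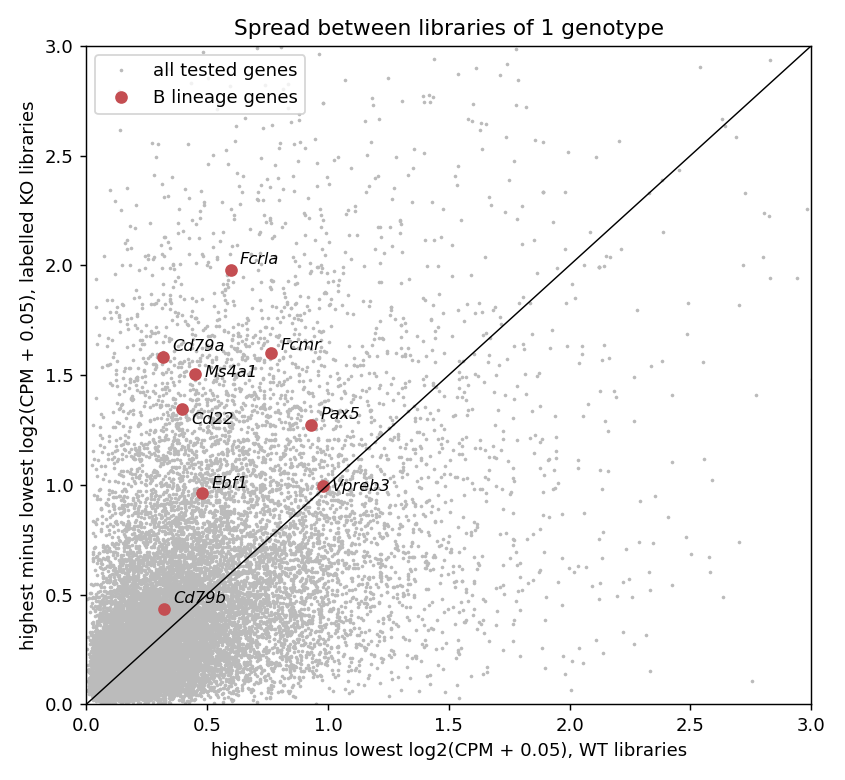
Highest minus lowest log2(CPM + 0.05) among the 3 labelled knockout libraries (vertical axis) and among the 3 wildtype libraries (horizontal axis) for all tested genes (grey) and the 9 B lineage genes (red), with the line of equal spread; 147 tested genes lie beyond the axes. Fcrla, Fcmr, Cd79a, Ms4a1 and Cd22 lie farthest above the line, Cd79b has the smallest spread of the 9 within the labelled knockout and Vpreb3 lies close to the line.

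KO1 was the lowest library for most members, so leaving it out must narrow their range within the labelled knockout. Between KO2 and KO3 alone the median log2 difference of the members was 0.37, against 0.18 for all tested genes. Without KO1 all 9 members were fitted higher in the labelled knockout, with a median log2 fold of 0.26, where 52.3% of all tested genes were fitted higher. In that fit Ms4a1, Ebf1 and Fcrla had an unadjusted p under 0.05, at log2 folds of 0.54, 0.84 and 0.71, and 0 of 9 passed the adjusted threshold, against 0.15% of all genes in that fit (edgeR quasi-likelihood, smallest BH-adjusted p = 0.175); 18.6% of the genes in that fit had an unadjusted p under 0.05. Without KO3 the direction turned, with 2 of 9 fitted higher and a median log2 fold of -0.12, where 50% of all tested genes were fitted higher. In the libraries with high Xist the members summed to 27.9 CPM in KO1 and to 47.4 CPM in WT1, the lowest sum of the labelled knockout and the highest of wildtype. The part of this difference between libraries in the result was not tested. Between KO2 and KO3 on one side and WT2 and WT3 on the other, all with low Xist, all 9 members were fitted higher. Their median log2 fold was 0.26, where 52.4% of the genes in that fit were fitted higher, with a median of 0.02. That fit leaves out KO1, already seen as the lowest library for most members. There 0 of 9 passed (edgeR quasi-likelihood, smallest BH-adjusted p = 0.0784, for Fcrla), where 3.98% of all tested genes passed. Fcrla and Ms4a1 had an unadjusted p under 0.05 there, against 27.2% of the genes in that fit.

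The members kept their proportions to each other to different degrees. The log2 CPM of a member minus the mean of the other 8 had the smallest range over the 6 libraries for Cd22 (0.43) and Ms4a1 (0.49), whose own log2 levels ranged over 1.35 and 1.51. The corresponding ranges were 0.74 for Cd79a, 0.73 for Cd79b and 0.80 for Pax5. They were 1.01 for Ebf1, 1.03 for Fcrla, 1.11 for Fcmr and 2.62 for Vpreb3. For Cd79b and Vpreb3 this range exceeded that of their own levels (0.47 and 1.65). Cd79b was lowest in KO1 like 6 of the other members but varied less, and Vpreb3 was highest there. Cd22 over Cd79a, the ratio with the smallest log2 range of the 36 (0.35, where the others reached 3.51), was 0.504, 0.397 and 0.429 in KO1 to KO3, against 0.423, 0.395 and 0.418 in WT1 to WT3. KO1 had the highest value of it, above the other 5 libraries.

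Among the 36 ratios that the 9 members form, 6 (16.7%) did not overlap between genotypes. Ms4a1 over Cd79a was one of them, at 0.546, 0.510 and 0.521 in KO1 to KO3, against 0.451, 0.386 and 0.424 in WT1 to WT3. KO1 had the highest value of this ratio while it had the lowest level of both genes. The exact two-sided permutation p for this ratio was 0.1, the smallest that 3 against 3 libraries allow. Any ratio without overlap has this p, so it adds nothing to the lack of overlap. It lies above the threshold used here even before adjustment over 36 ratios. No ratio could have passed, and this test cannot decide whether the ratio differs between genotypes. The other ratios without overlap were Ms4a1 over Cd22, Ms4a1 over Fcmr, and Ebf1 over Cd22, over Fcmr and, inverted, under Cd79a. Ratios share genes, so the 6 are not independent, and nothing is read from their number.

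Levels of different genes were compared per length, as CPM per kilobase of merged exons (RPKM, mean over the 6 libraries). Cd79b led at 11.5 RPKM, followed by Cd79a at 6.94, Fcrla at 1.40 and Fcmr at 1.28 RPKM. Cd22 had 0.843, Ms4a1 0.767, Pax5 0.397, Vpreb3 0.393 and Ebf1 0.0746 RPKM. The order was clear within each of the 6 libraries between Cd79b and Cd79a, Cd79a and Fcrla, Fcmr and Cd22, Ms4a1 and Pax5, and Vpreb3 and Ebf1. Fcrla exceeded Fcmr in 4 libraries, Cd22 exceeded Ms4a1 in 5 and Pax5 exceeded Vpreb3 in 4, so these neighbours were not separated beyond their spread. The median over all tested genes was 3.30 RPKM, which 2 of the 9 members exceeded, and the T cell receptor chain gene Cd3e stood at 92.3 RPKM. Merged exon length counts every annotated isoform and lowers the RPKM of genes with long untranslated exons.

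Other genes of the B cell receptor pathway were taken as a list of signalling genes and coreceptors. Of the 18 signalling and coreceptor genes, 0 passed edgeR's adjusted test, where 0.091% of all tested genes passed. Their median log2 fold was 0.12 against 0.01 for all tested genes. The adaptor Blnk had 1.85, 3.99 and 5.13 CPM in KO1 to KO3, against 3.44, 2.72 and 2.97 CPM in WT1 to WT3. The phospholipase Plcg2 had a log2 fold of 0.44 (edgeR quasi-likelihood, unadjusted p = 0.0393, BH-adjusted p = 0.313). Prkcb, the most abundant gene of the list, and the kinase Syk had log2 folds of -0.09 and 0.20. KO1 was the lowest library in 10 of the 18.

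Surface receptors of B cells were also low in KO1. In 12 of 13 genes KO1 was the lowest library. The adjusted test was passed by 0 of 13, against 0.091% of all tested genes (edgeR quasi-likelihood, smallest BH-adjusted p = 0.468, for Cd180). Cd40, the receptor for T cell help, had 0.710, 1.91 and 2.47 CPM in KO1 to KO3, against 1.44, 1.38 and 1.87 CPM in WT1 to WT3. Cd180, a receptor related to toll-like receptors, had 1.73, 4.58 and 8.72 CPM in KO1 to KO3, against 3.22, 1.92 and 2.65 CPM in WT1 to WT3. The chemokine receptor Cxcr5, which guides B cells to follicles, had 0.545, 1.45 and 1.70 CPM in KO1 to KO3, against 1.76, 1.68 and 2.10 CPM in WT1 to WT3, so that KO1 lay far below and the other 2 labelled knockout libraries at 1.45 and 1.70 CPM near the lowest wildtype value. Tnfrsf13b, the most abundant gene of this list at 37.9 to 40.1 CPM in the labelled knockout and 35.0 to 41.8 CPM in wildtype, was the exception to the low level in KO1.

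Of 14 regulators of the B lineage 0 passed edgeR's adjusted test, 1 had an unadjusted p under 0.05 (Mef2c), and their median log2 fold was 0.09. Over all tested genes 0.091% passed and 14.6% had an unadjusted p under 0.05. Mef2c, a transcription factor shared by B and myeloid cells, had 1.75, 3.28 and 5.72 CPM in KO1 to KO3, against 2.10, 1.19 and 1.90 CPM in WT1 to WT3 (log2 fold 1.05; edgeR quasi-likelihood, unadjusted p = 0.0228, BH-adjusted p = 0.265). Spib, a PU.1 relative of B cells and plasmacytoid dendritic cells, had 5.04, 9.13 and 13.9 CPM in KO1 to KO3, against 5.89, 6.25 and 6.59 CPM in WT1 to WT3. Ikzf3 and Lef1, which thymocytes also express, were far more abundant. Ikzf3 had 231 to 262 CPM in the labelled knockout and 226 to 264 CPM in wildtype, and Lef1 had 231 to 258 CPM in the labelled knockout and 250 to 329 CPM in wildtype. Of the 5 tested genes of early B cells 0 passed by edgeR and 1, Cd93, by DESeq2 (adjusted p = 0.0338), where 0.091% and 3.22% of all tested genes passed. The surrogate light chain gene Vpreb1 had 1.32, 1.32 and 0.977 CPM in KO1 to KO3, against 1.63, 1.77 and 1.47 CPM in WT1 to WT3, so the labelled knockout lay below wildtype (log2 fold -0.42; edgeR quasi-likelihood, BH-adjusted p = 0.464). Igll1, its partner, was too low to be tested, at 0.0826 to 0.191 CPM in the labelled knockout and 0.104 to 0.184 CPM in wildtype. Cd93, which early B cells share with other cells, had 6.82 to 10.6 CPM in the labelled knockout and 5.36 to 6.45 CPM in wildtype without overlap (log2 fold 0.62; edgeR quasi-likelihood, BH-adjusted p = 0.185).

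Immunoglobulin constant genes did not share 1 pattern. Ighm had 575, 536 and 645 CPM in KO1 to KO3, against 752, 607 and 579 CPM in WT1 to WT3, and was not lowest in KO1. The 9 members together summed to only 27.9 to 58.6 CPM in the labelled knockout and 39.6 to 47.4 CPM in wildtype. Which cells made the Ighm transcripts was not tested. Ighd, which mature B cells make beside Ighm, had 3.70, 5.39 and 6.81 CPM in KO1 to KO3, against 4.03, 4.17 and 5.06 CPM in WT1 to WT3. The light chain gene Igkc had 55.0, 146 and 290 CPM in KO1 to KO3, against 275, 154 and 120 CPM in WT1 to WT3, and Ighg2c, a switched heavy chain, had 7.98, 23.5 and 170 CPM in KO1 to KO3, against 80.2, 40.1 and 9.93 CPM in WT1 to WT3. KO1 was lowest for these 3 and WT1 was the highest wildtype library for Igkc and Ighg2c. Jchain, which plasma cells use to join immunoglobulins, had 9.22, 25.2 and 41.8 CPM in KO1 to KO3, against 41.4, 22.7 and 17.9 CPM in WT1 to WT3. Of the 11 tested constant genes and the 7 tested plasma cell genes 0 passed edgeR's adjusted test and 0 had an unadjusted p under 0.05. Over all tested genes these shares were 0.091% and 14.6%, so nothing is read from counts in lists this short. Of the genes known from licensed thymic B cells, Aire had 0.790 to 1.12 CPM in the labelled knockout and 0.588 to 0.906 CPM in wildtype, and Cd86 had 1.49 to 4.10 CPM in the labelled knockout and 3.18 to 3.69 CPM in wildtype. The cytokine receptor Il4ra, which thymocytes also express, had 106 to 136 CPM in the labelled knockout and 163 to 172 CPM in wildtype, a log2 fold of -0.46 that did not pass by edgeR (quasi-likelihood, BH-adjusted p = 0.143) and passed by DESeq2 (adjusted p = 0.0062).

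The 10 B cell markers, 7 of which are members, summed to 38.2, 66.0 and 84.3 CPM in KO1 to KO3, against 63.1, 55.9 and 61.3 CPM in WT1 to WT3, with KO1 lowest in 8. Summed MHC class II, conventional dendritic cell and macrophage genes were, like the B cell sum, lowest in KO1 and highest in KO3. Their part in the result was not tested. Their fitted directions differed. The median log2 fold was 0.44 for macrophage markers (9 of 9 tested fitted higher) and 0.33 for conventional dendritic cell markers (6 of 8). For MHC class II genes it was -0.03 (3 of 10). The 10 MHC class II genes, used by B cells, dendritic cells and macrophages, summed to 232, 542 and 663 CPM in KO1 to KO3, against 536, 483 and 493 CPM in WT1 to WT3, and KO1 was lowest in 10 of 10. Conventional dendritic cell markers (8 of 8 tested) summed to 18.8, 39.0 and 57.9 CPM in KO1 to KO3, against 28.6, 28.0 and 26.8 CPM in WT1 to WT3, with KO1 lowest in 7. Macrophage markers (9 of 10 tested) summed to 44.4, 75.5 and 88.9 CPM in KO1 to KO3, against 73.8, 49.2 and 51.0 CPM in WT1 to WT3, with KO1 lowest in 5. Erythrocyte markers (5 of 7 tested) summed to 3.37, 23.0 and 34.2 CPM in KO1 to KO3, against 9.09, 57.6 and 40.8 CPM in WT1 to WT3. The summed level of the 8 plasmacytoid dendritic cell markers, 660 to 803 CPM in the labelled knockout and 866 to 966 CPM in wildtype, was mostly Ccr9, which thymocytes also express, at 570 to 692 CPM in the labelled knockout and 768 to 872 CPM in wildtype. Of these 8 markers 6 were fitted higher in the labelled knockout, against 51.2% of all tested genes. Their median log2 fold was 0.43, and 0 passed the adjusted test, against 0.091% of all tested genes. Siglech, a surface receptor of these cells, had 3.01, 7.04 and 21.9 CPM in KO1 to KO3, against 2.16, 4.60 and 2.54 CPM in WT1 to WT3. Neutrophil markers stood out in KO3, at 263 CPM against 20.4 to 67.1 CPM in the other 5 libraries. Natural killer cell markers summed to 57.7 to 88.8 CPM in the labelled knockout and 48.0 to 58.5 CPM in wildtype, and thymic epithelium markers to 17.4 to 19.5 CPM in the labelled knockout and 14.3 to 18.4 CPM in wildtype. The granzyme gene Gzma made the largest part of the natural killer cell sum, at 43.4 to 59.3 CPM in the labelled knockout and 27.1 to 35.9 CPM in wildtype. Stroma and endothelium markers (5 of 8 tested) summed to 124 to 133 CPM in the labelled knockout and 124 to 127 CPM in wildtype, mostly from Pecam1 at 115 to 120 CPM in both. Their median log2 fold was 0.61, and 0 of 5 passed the adjusted test, against 0.091% of all tested genes. Cdh5, the cadherin of endothelium, had 0.677, 0.810 and 2.96 CPM in KO1 to KO3, against 0.369, 0.450 and 0.444 CPM in WT1 to WT3 without overlap (edgeR quasi-likelihood, unadjusted p = 0.0069, BH-adjusted p = 0.195). Pdgfrb, a receptor of stromal cells, had 7.19 to 9.73 CPM in the labelled knockout and 5.0 to 6.07 CPM in wildtype, also without overlap (edgeR quasi-likelihood, unadjusted p = 0.0036, BH-adjusted p = 0.165). In none of these lists was a marker at 0 in all 6 libraries.

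**Figure D4:**
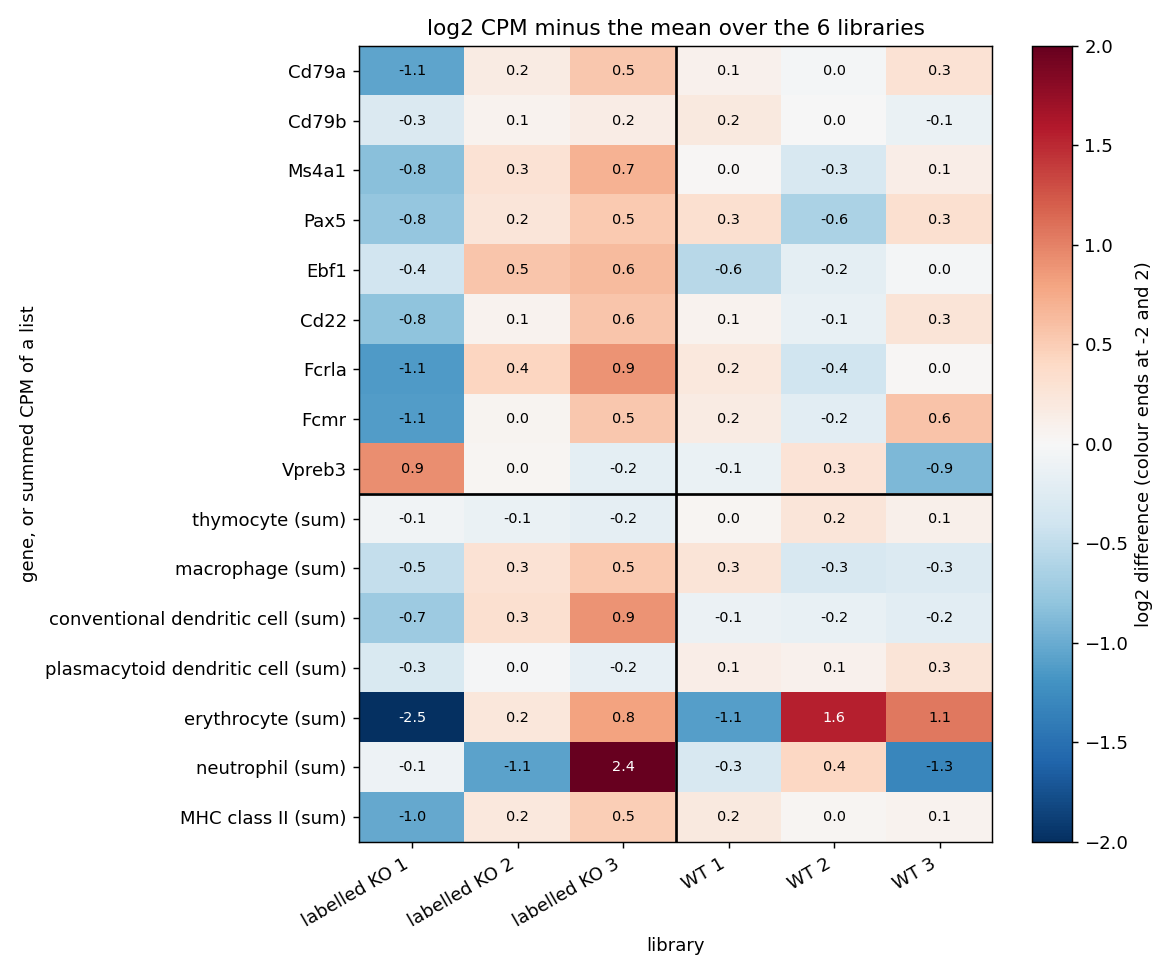
Log2 CPM minus its mean over the 6 libraries (colour and printed value) for the 9 B lineage genes and for the summed CPM of marker lists of other cells, with the 3 labelled knockout libraries left of the 3 wildtype libraries. KO1 is low for 8 of the 9 genes (Vpreb3 is 0.92 higher there). It is also low for MHC class II (-1.02), dendritic cell, macrophage and erythrocyte markers, with the plasmacytoid dendritic cell sum carried mostly by Ccr9. Thymocyte markers differ by less than 0.25 from their mean in each library. They lie below it in each labelled knockout library and above it in each wildtype library.

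The genes outside the set with the most similar pattern were sought by the root-mean-square difference between centred log2 CPM profiles over the 6 libraries. Among 11639 genes with a mean of at least 1 CPM the 10 closest were Naip5 (0.05), Lgals3 (0.08), Ank (0.08), Mettl15 (0.09), H2-DMb1 (0.09), Aif1 (0.09), Sept3 (0.10), Slc46a3 (0.10), Pou2f2 (0.10) and Ctss (0.10). H2-DMb1, which loads peptides onto MHC class II, had 5.19, 9.22 and 11.5 CPM in KO1 to KO3, against 9.29, 8.13 and 9.41 CPM in WT1 to WT3. Ctss, a protease of antigen-presenting cells, had 19.7, 33.8 and 36.3 CPM in KO1 to KO3, against 30.9, 22.2 and 27.5 CPM in WT1 to WT3. Lgals3 and Aif1 are known as macrophage genes, and Pou2f2 encodes the octamer-binding factor OCT-2 of B cells. Cd72, Blnk and Ighd ranked 28, 52 and 74 by this measure. The profile is an average of members that include Cd79b and Vpreb3, and a small difference over 6 libraries says nothing of a shared cell or control.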

How the data were processed

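The authors deposited 1 table of raw counts per Ensembl gene identifier, with a column for each library, as whole numbers without scaling, per the file headers. The notes name STAR 2.5.4b, featureCounts and the build GRCm38, per the submitters' processing notes. Annotation release, strand setting and handling of multi-mapped reads were not stated in the sources used. RNA was isolated with a column kit and made into stranded messenger RNA libraries, per the labels' protocols. All 55536 identifiers matched GENCODE M21, which gave symbols, positions and exon lengths.

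Genes were filtered with edgeR's filterByExpr (18690 kept) and compared with edgeR 4.0.16 (TMM, robust glmQLFit, glmQLFTest, R 4.3.3), without covariates, with a Benjamini-Hochberg threshold of 0.05 over all tested genes. The test was first run on simulated data. Log2 CPM used a prior count of 2. A count of 0 allows 3 counts, 0.0363 to 0.0538 CPM per library. Counting intervals are exact (Clopper-Pearson, 95%). The alternatives were DESeq2 1.42.0, limma-voom (limma 3.58.1), other scalings and filters, a replicate block, an Xist covariate and the omission of libraries; the range within the labelled knockout without KO1 was added after the data were seen. Members and lists were chosen with earlier results of these data known. Each list names up to 4 genes of smallest p and its most abundant gene, and the nearest profiles are the 10 of smallest difference; Blnk, Cd40, Ikzf3, Igll1, Igkc, Ighg2c, Jchain, Cd3e, Gm2962 and the ranks given for 3 genes were named after their values were seen, as were the ratios. A few genes are not reported here.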

Additional observations from a re-analysis of the deposited data

How the results depend on the processing

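No member passed in any of the 15 alternatives that were fitted (smallest adjusted p = 0.0784, edgeR quasi-likelihood). The filter of 1 CPM in 3 libraries tested 7 members, and DESeq2 gave no adjusted p for Ebf1 and Vpreb3. Numbers shared between genotypes were not shown to pair the mice. The correlation of deviations was -0.12 to 0.03 for same-numbered libraries, with 0 of 3 labelled knockout libraries closest to its own number. With 3 libraries per genotype this cannot settle whether mice were paired, and KO1 and WT1 shared the high Xist level. With the replicate block 9 genes passed in place of 17 and the members' median log2 fold was 0.01. Over all genes DESeq2 called 602, edgeR without the low-count filter 840, without replicate 1 of each genotype 762, and with 1 library left out 8 to 29. The members' median log2 fold was -0.12 to 0.26 with libraries left out. Their median log2 range within the labelled knockout was 0.37 without KO1, against 1.35, and leaving out an extreme library must narrow a range.

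Fitted directions of members near no change turned. With 1 library left out, log2 folds ranged from -0.43 to 0.25 for Cd79a, -0.12 to 0.092 for Cd79b, -0.12 to 0.54 for Ms4a1, -0.23 to 0.33 for Pax5, -0.37 to 0.26 for Cd22, -0.11 to 0.71 for Fcrla and -0.62 to 0.096 for Fcmr. The omissions that turned the direction were KO1 (Cd79a, Cd79b, Cd22, Fcmr), KO2 (Pax5), KO3 (Ms4a1, Pax5, Fcrla), WT1 (Cd79b), WT2 (Pax5) and WT3 (Cd79a, Cd22). Without replicate 1 of each genotype Cd79a had a log2 fold of 0.23, Cd79b 0.18, Cd22 0.26 and Fcmr 0.067. Pax5 had -0.027 with the Xist covariate. Ebf1 and Vpreb3 kept their direction in each fit that tested them.

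In the other lists DESeq2 called 1 gene of early B cells (Cd93) and 1 of licensed thymic B cells (Il4ra). Without the low-count filter 2 lineage regulators (Mef2c and Spib), 1 early gene (Cd93) and 1 licensed gene (Il4ra) passed. Without replicate 1 of each genotype 1 signalling gene (Pik3ap1), 1 surface receptor (Cd180), 2 regulators (Mef2c and Spib), 1 early gene (Cd93) and 1 constant gene (Igha) passed, and Pik3ap1 passed without KO1. Counts in the other single-library omissions were 0. Over all genes in each fit 3.22% passed by DESeq2, 2.53% without the low-count filter, 3.98% without replicate 1 of each genotype and 0.15% without KO1. The median log2 fold of the early B cell genes was 0.079 to 0.50 with 1 library left out. The causes were not tested. Depth limits Vpreb3 and Ebf1 most among the members, at 11 to 85 counts per library, with a coefficient of variation from counting of 19.1% and 12.5% in the labelled knockout, against 43.7% and 34.4% between its libraries.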
